A study of Mus musculus with 5 samples.

Results

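The genes described are the 6 of ileal cubilin endocytosis and vitamin B12 (cobalamin) transport, Cubn, Amn, Dab2, Tcn2, Cd320 and Abcc1, taken by symbol from the 27933 gene symbols used, and all 6 were found. Single cells of the ileum, the distal small intestine, were profiled from C57BL/6 mice (age 8 to 12 weeks) after either sham surgery (3 libraries, sham 1 to 3) or small bowel resection (2 libraries, resection 1 and 2; titles SBR1 and SBR2). All mice had surgery of some kind, and the labels name no further genotype or agent. How much bowel was removed, the time after surgery, the sex and the number of mice behind each library are not given in the sources used here, so p-values measure the spread between these libraries, which may be partly technical. The expression of the 6 genes was compared across cell classes, along the villus and between sham and resection.

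Dietary vitamin B12 reaches the ileum bound to intrinsic factor. There the complex is taken up by cubam, a receptor made of cubilin (Cubn), a large peripheral membrane protein that binds the ligand, and amnionless (Amn), which anchors cubilin in the membrane and carries the signals for its endocytosis. Dab2 is a clathrin adaptor that links receptors of this kind to the endocytic machinery, and in the kidney cubilin works together with megalin (Lrp2). After lysosomal release the vitamin leaves the enterocyte through the exporter Abcc1 (MRP1) and travels in blood on transcobalamin (Tcn2), which other cells take up through the transcobalamin receptor Cd320.

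The genes lie on separate chromosomes, given here as GENCODE vM21 places them on GRCm38, the build that the submitters' processing notes name. Cubn (ENSMUSG00000026726) spans chr2:13276338-13491813 on the minus strand and Amn (ENSMUSG00000021278) chr12:111271095-111276426 on the plus strand. Dab2 (ENSMUSG00000022150) spans chr15:6299788-6440712 on the plus strand, and Tcn2 (ENSMUSG00000020432) chr11:3917192-3932159 on the minus strand. Cd320 (ENSMUSG00000002308) spans chr17:33843091-33849774 and Abcc1 (ENSMUSG00000023088) chr16:14361558-14475737, both on the plus strand. All 6 are annotated as protein coding, and 4 of them (Cubn, Amn, Dab2 and Cd320) have a start-site window in the RefSeq promoter table.

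The promoters of Cubn and Amn are shown because these genes encode the partners of a single receptor, yet their RNA profiles differed below. Each is the 250 bases before the RefSeq start (GRCm38.p6), 5′ to 3′ on the strand of the gene, at chr2:13491877-13492126 (minus) for Cubn and chr12:111270846-111271095 (plus) for Amn. Capitals mark matches, on either strand, to any of the 5 short motifs searched.
Cubn: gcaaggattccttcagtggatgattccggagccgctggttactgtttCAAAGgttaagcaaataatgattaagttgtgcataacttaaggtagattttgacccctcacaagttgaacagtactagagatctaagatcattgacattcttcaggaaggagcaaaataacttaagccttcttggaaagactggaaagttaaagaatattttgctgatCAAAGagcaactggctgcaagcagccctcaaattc
Amn: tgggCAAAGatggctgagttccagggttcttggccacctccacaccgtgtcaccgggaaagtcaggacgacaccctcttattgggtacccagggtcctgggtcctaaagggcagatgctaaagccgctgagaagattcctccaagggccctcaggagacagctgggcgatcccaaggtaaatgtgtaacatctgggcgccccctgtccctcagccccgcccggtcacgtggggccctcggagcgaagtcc
The motifs were CAAAG (a core of the HNF4 half-site), GATAA (GATA factors), TTTATG (Cdx2), GTTAAT (an HNF1 half-site) and AGGTCA (a nuclear receptor half-site). They do not overlap one another in these windows. Only CAAAG matched, at 2 places in Cubn and 1 in Amn, and 48.6% of all 32851 promoter windows of this length hold it. The other motifs occur in 22.6% (GATAA), 10.8% (TTTATG), 6.43% (GTTAAT) and 14.0% (AGGTCA) of windows. A match describes letters only, and so does its lack.

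The 5 libraries held 19404 cells and between 11749028 and 41281731 unique molecular identifiers (UMIs, counted RNA molecules) each, with a median of 4541 to 6239.5 UMIs per cell. After filters 18235 cells were left, of which 17822 were in 6 epithelial classes and 413 in a T cell-like class. Classes were named from marker genes and carry the ending "-like" for that reason. Enterocyte-like cells of all 5 libraries held RNA of Fabp6, the ileal bile acid binding protein. Its level was lowest in resection 1 (7640 CPM) and highest in sham 3 (44559 CPM). CPM are the UMIs of a gene per 1e6 UMIs summed over the cells of a class in a library. The libraries formed groupings other than the surgery groups, here called set A (sham 1 and resection 1) and set B (sham 2, sham 3 and resection 2). Clusters overlapped by 20.9% to 44.9% of enterocyte-like cells between libraries of set B, by 3.33% between those of set A, and by 2.16% to 3.28% across the sets. In this class the overlap thus marked set B but not set A. The libraries of set A shared clusters of other classes: cluster 8 (immature enterocyte-like), cluster 17 (Paneth-like) and cluster 18 (cycling-like). Different clusters thus hold the enterocyte-like class in different libraries: mainly clusters 5 and 9 in resection 1, clusters 2, 3, 4 and 10 in resection 2, cluster 12 in sham 1, clusters 3, 4 and 7 in sham 2 and cluster 6 in sham 3. Cluster 5 held 1339 of the 2358 enterocyte-like cells of resection 1. It was led by Fabp1, Lct, Apoa4, Leap2 and Slc2a2, with Fgf15 also among its leading genes. In that library it had 4638 CPM of Fabp6 and 266 CPM of Cubn. Any 2 libraries shared 6 to 47 cell barcodes, at most 1.5% of the smaller library.

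Cubn, Amn and Tcn2 were abundant and Cd320, Abcc1 and Dab2 were near the limit of detection. Over all deposited cells there were 32897 UMIs of Amn, 27623 of Tcn2 and 17861 of Cubn, against 373 of Cd320, 147 of Abcc1 and 76 of Dab2. In this 3' assay each molecule is tagged at its end, so a level does not scale with transcript length, but no order between genes is drawn because capture can differ between them. In epithelial cells the enterocyte-like class held 54.4% of all UMIs but 92.1% of those of Cubn, 81.1% of Amn, 79.8% of Tcn2 and 74.3% of Dab2. It held 18.7% of Cd320 and 10.5% of Abcc1. Of these last genes 68.3% (Cd320) and 69.9% (Abcc1) of UMIs were in the stem-like, cycling-like and immature enterocyte-like classes. These classes held 2.67%, 8.30% and 19.1% of all epithelial UMIs. The receptor subunits and the blood carrier thus stood on the absorptive side of the epithelium. The transcobalamin receptor and the exporter stood on the crypt and immature side.

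**Figure D1:**
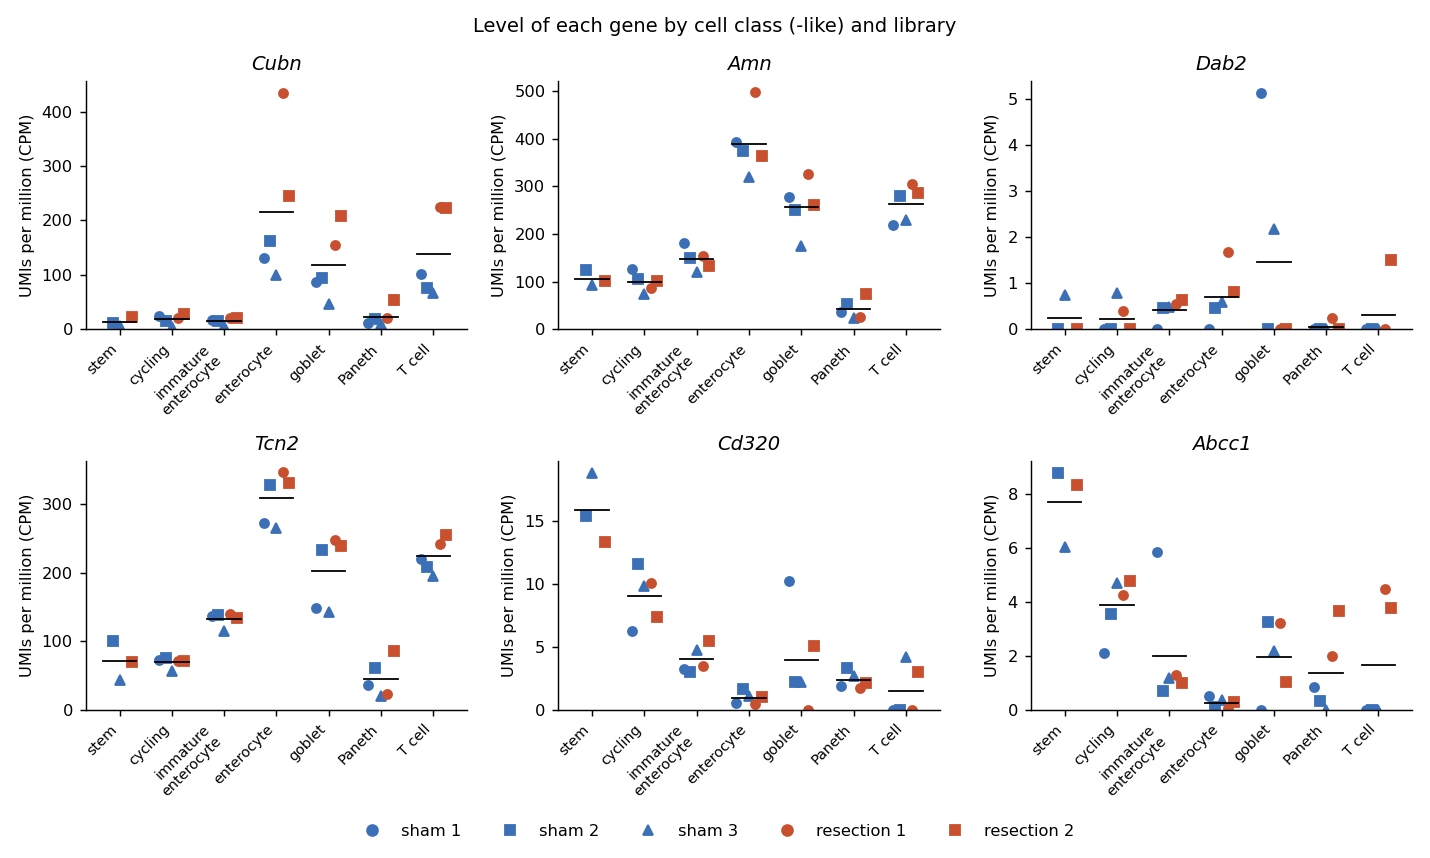
Level of each of the 6 genes (y axis, CPM of the class sum, linear from 0) in 7 cell classes (x axis), with 1 point per library that has at least 20 cells of the class and a black line at the mean of those libraries. Cubn, Amn and Tcn2 peak in enterocyte-like cells (means of 215, 390 and 309 CPM), whereas Cd320 and Abcc1 peak in stem-like cells.

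Cubn, the ligand-binding subunit, was at 131, 162 and 100 CPM in enterocyte-like cells of sham 1, 2 and 3 and at 435 and 245 CPM in resection 1 and 2, a mean of 215 CPM ± 134 (SD, n = 5). In immature enterocyte-like cells, which lie between crypt and villus, it was at 16.8, 15.4 and 5.45 CPM in sham against 21.1 and 20.8 CPM after resection (15.9 ± 6.35, SD, n = 5). Every library therefore had far more Cubn in the mature class. The log2 ratio of the mature to the immature level was 2.96, 3.39 and 4.20 in sham 1, 2 and 3 against 4.37 and 3.56 in resection 1 and 2. Cycling-like (18.4 CPM ± 9.70, SD, n = 5), Paneth-like (22.6 ± 18.1) and immature enterocyte-like cells did not differ in Cubn beyond the spread of the libraries. In stem-like cells Cubn was at 11, 6.76 and 22.5 CPM in sham 2, sham 3 and resection 2, the libraries with at least 20 such cells.

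Amn, the membrane anchor, had a shallower profile. It was at 393, 375 and 320 CPM in enterocyte-like cells of sham 1, 2 and 3 and at 497 and 363 CPM in resection 1 and 2 (390 ± 65.8, SD, n = 5). The immature class had 147 CPM ± 22.6, cycling-like cells 99.7 ± 19.9 and Paneth-like cells 42.4 ± 20.7 (SD, n = 5 for each). The log2 ratio of the mature to the immature level was 1.12, 1.33 and 1.40 in sham 1, 2 and 3 against 1.69 and 1.46 in resection 1 and 2, and in each library it was smaller than that of Cubn. Tcn2, the blood carrier, followed Amn rather than Cubn, with 309 CPM ± 37.0 in the mature class, 133 ± 9.87 in the immature class and 69.4 ± 7.86 among cycling-like cells (SD, n = 5 for each) and mature to immature log2 ratios of 1.0 to 1.32. The ratio of mature to immature level was thus largest for Cubn among these 3 genes in every library. The classes draw on different clusters by library set: immature enterocyte-like cells lie in cluster 1 in set B and in cluster 8, led by ribosomal pseudogenes, in set A. Classes are cut from the same cells, so these profiles are described and not tested, although none of the 6 genes was used for the clustering.

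Free RNA in droplets can give UMIs of a gene in cells that do not express it, so each class was set beside T cell-like droplets. T cell-like droplets, which should lack these genes, had 66.5% ± 18.2 of the enterocyte-like Cubn level of the same library, 68.4% ± 9.50 of that of Amn and 72.8% ± 6.61 of that of Tcn2 (SD, n = 5). The 10 enterocyte marker genes summed stood at 72.6% ± 7.64 there, close to the 3 genes. In goblet-like cells the values were 58.1% ± 19 (Cubn), 65.8% ± 6.75 (Amn), 64.5% ± 9.62 (Tcn2) and 59.8% ± 8.49 (enterocyte markers), and in Paneth-like cells 11.2% ± 6.50, 11.2% ± 5.98, 14.3% ± 7.94 and 11.6% ± 6.02. In each of these classes the 3 genes kept about the same ratio to the enterocyte markers as in enterocyte-like cells, so their levels there are not read as expression of these classes. The immature and cycling-like classes differed for Amn and Tcn2. In immature enterocyte-like cells Amn stood at 38.1% ± 5.43 and Tcn2 at 43.2% ± 4.11 of the mature level, above the 17.3% ± 4.09 of the enterocyte markers, with no overlap between libraries. Fabp6 alone, however, stood at 34.1% ± 7.56, so the comparison depends on the enterocyte gene chosen. Cubn was at 8.22% ± 3.25 there, below the markers. In cycling-like cells Amn (26.0% ± 5.68) and Tcn2 (22.6% ± 2.54) were again above the enterocyte markers (10.3% ± 2.94), as well as Fabp6 (9.01% ± 3.26), and Cubn (9.61% ± 6.23) was not.

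**Figure D2:**
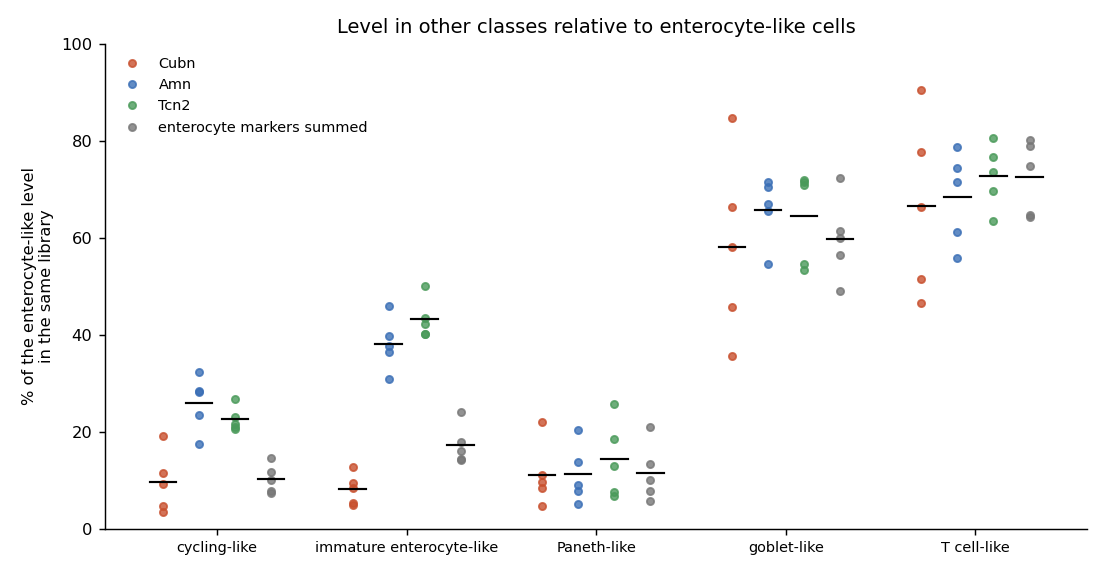
Level of Cubn, Amn, Tcn2 and the sum of 10 enterocyte markers in 5 other classes, as a percent of the level in enterocyte-like cells of the same library (y axis). Points are the 5 libraries and black lines their means. In droplets of the goblet-like, Paneth-like or T cell-like class the 4 measures lie together, whereas in immature enterocyte-like and cycling-like cells Amn and Tcn2 lie above the markers and Cubn does not.

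Cd320, the receptor for transcobalamin, was highest on the crypt side. Stem-like cells had 15.3, 18.8 and 13.4 CPM in sham 2, sham 3 and resection 2, from 7, 25 and 16 UMIs, and sham 1 had no stem-like cell and resection 1 had 12 with 0 UMIs. Cycling-like cells had 9.0 CPM ± 2.15, immature enterocyte-like cells 3.98 ± 1.08, Paneth-like cells 2.33 ± 0.639 and enterocyte-like cells 0.951 ± 0.491 (SD, n = 5 for each). The stem-like and cycling-like values did not overlap those of immature enterocyte-like cells, and these did not overlap the enterocyte-like values. T cell-like droplets held 5 UMIs of Cd320 in all. Its profile therefore ran opposite to that of its ligand Tcn2.

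Abcc1, the exporter, was rarer but had the same orientation. It was at 8.77, 6.01 and 8.34 CPM in stem-like cells of sham 2, sham 3 and resection 2, at 3.87 CPM ± 1.11 in cycling-like and at 0.257 CPM ± 0.181 in enterocyte-like cells (SD, n = 5), where all 5 libraries together held 14 UMIs. Immature enterocyte-like cells had 0.690 to 1.27 CPM in 4 libraries, between those classes, but 5.83 CPM in sham 1, from 9 UMIs, above the cycling-like level there (2.09 CPM, from 1 UMI). In T cell-like droplets the sham libraries held 0 UMIs, and resection 1 and 2 held 1 and 5 (4.48 and 3.78 CPM), near the cycling-like level of the same libraries (4.26 and 4.77 CPM).

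Dab2, the clathrin adaptor, was found in 70 of 17822 epithelial cells. In enterocyte-like cells it was at 0, 0.461 and 0.592 CPM in sham 1, 2 and 3 against 1.67 and 0.806 CPM in resection 1 and 2, from 0, 5, 7, 22 and 18 UMIs. The count of 0 in sham 1 allows up to 0.768 CPM (3 UMIs of that class sum), which reaches past both other sham libraries. Dab2 is also a gene of macrophages and stroma. Of the 52 enterocyte-like cells with a Dab2 UMI, 1 had a UMI of any of the 20 myeloid and stromal markers, against 418 of all 11470 enterocyte-like cells, and 40 (76.9%) had a Cubn UMI, against 55.4% of all. With the share of each library weighted by its Dab2 cells, of which 40 came from the resection libraries, the latter was 61.6%. Their median depth was 4460.5 UMIs, close to the 4657.5 of all. The summed myeloid markers in enterocyte-like cells were at 3.30 to 15.4 CPM in sham against 2.66 and 6.18 CPM after resection. Of these 10 markers 1 to 4 were at 0 in a library (Adgre1 in all 5), and the others were detected. The stromal markers were at 1.27 to 5.12 and 1.52 to 2.66 CPM, with 4 to 7 of 10 at 0 in a library (Dcn, Lum and Cdh5 in all 5). Whether the Dab2 UMIs come from such cells was not tested. Lrp2 (megalin) had 0 UMIs in all 126061000, and Gif, the gene of intrinsic factor, had 2, both in Paneth-like cells.

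The comparison of surgery groups used edgeR on counts summed per library and class, and the CPM values beside its fold changes are scaled by its TMM factors. In enterocyte-like cells Cubn was at 112, 179 and 109 CPM in sham 1, 2 and 3 against 400 and 261 CPM in resection 1 and 2. The resection values exceeded all 3 sham values. The log2 fold change was 1.31 ± 0.35 (SE), with an edgeR quasi-likelihood p of 0.00635 that became an adjusted p of 0.659 over all 10351 genes tested, so Cubn did not pass the threshold of 0.05. It was 1.82 within set A and 0.85 within set B. edgeR called 0 genes in this class (0% of those tested), with 516 (4.99%) at an unadjusted p under 0.05, 26 (0.251%) called with the library set as a term and 69 called by DESeq2. Of all genes tested 10.6% had both resection libraries above every sham library, and Cubn was the only 1 of the 4 tested members to do so. The adjusted p of Cubn was 0.0621 by DESeq2, 0.167 by edgeR with the library set as a term and 0.0417 by edgeR without the filter on low counts, the last of which passes the threshold. Over 12 alternative settings it lay between 0.0122 and 1.0, with a higher level after resection in each. Leaving out resection 1 lowered the log2 fold change to 0.97. Fabp6 differed the other way in the same cells, at 34014, 27732 and 44559 CPM in sham against 7640 and 21978 CPM after resection (without TMM scaling), and its part in the Cubn result was not tested.

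Amn and Tcn2 differed less between the groups. Amn was at 335, 416 and 347 CPM in sham against 458 and 386 CPM after resection, with overlapping groups and a log2 fold change of 0.21 ± 0.29 (SE, edgeR adjusted p = 0.998). Tcn2 was at 233, 363 and 288 CPM in sham against 319 and 353 CPM after resection (0.19 ± 0.31, SE, edgeR adjusted p = 0.998). Without TMM scaling Tcn2 was at 273, 328 and 266 CPM in sham against 346 and 332 CPM after resection, without overlap, and with it the groups overlapped. Cd320 was at 0.437 to 1.84 CPM in sham against 0.420 and 1.10 CPM after resection (-0.66 ± 0.66, SE, edgeR adjusted p = 0.998). Dab2 and Abcc1 were too rare in this class to be tested.

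**Figure D3:**
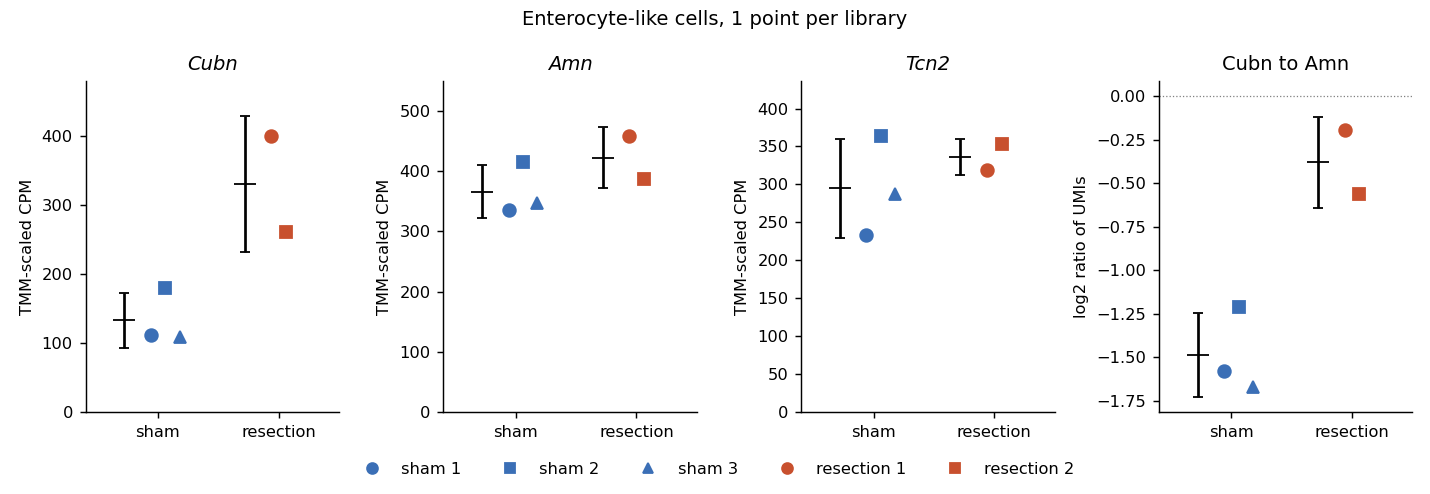
Enterocyte-like cells, with the TMM-scaled CPM of Cubn, Amn and Tcn2 (linear from 0) and the log2 ratio of Cubn to Amn UMIs on the y axes, 1 point per library, and the group mean with its SD (n = 3 sham, n = 2 resection) in black. Both resection libraries lie above the sham libraries for Cubn and for the ratio, and the groups overlap for Amn and Tcn2.

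The ratio of the receptor subunits does not depend on scaling. The log2 ratio of Cubn to Amn UMIs in enterocyte-like cells was -1.58, -1.21 and -1.67 in sham 1, 2 and 3 against -0.19 and -0.57 in resection 1 and 2, so the Cubn count came closer to that of Amn in both resection libraries. Sham averaged -1.49 ± 0.24 (SD, n = 3) and resection -0.38 ± 0.26 (SD, n = 2). They differed by 1.11, which was 1.39 within set A and 0.88 within set B. An exact permutation test over the libraries (two-sided) gave p = 0.1, the smallest it can give, and 0.233 after adjustment over the 7 contrasts computed. The ratio of Cubn to Tcn2 differed by 1.11 as well (exact permutation p = 0.1, adjusted 0.233), and over all epithelial cells the Cubn to Amn ratio differed by 1.15 (exact permutation p = 0.1, adjusted 0.233). These contrasts share Cubn and are not independent. T cell-like droplets had 13, 33 and 16 Cubn UMIs against 28, 122 and 55 Amn UMIs in sham, and 50 and 294 against 68 and 379 after resection, so the ratio was closer to even in the resection libraries there too.

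A larger share of cells held Cubn after resection, and a larger share held several UMIs of it. With every cell thinned to 2000 UMIs, which left out no cell, 20%, 26.3% and 18.6% of enterocyte-like cells of the sham libraries and 51.1% and 39.2% of those of the resection libraries had a Cubn UMI. The exact 95% intervals, which cover counting error only, were 17.1 to 23.2, 24.6 to 28.2 and 16.7 to 20.6 in sham and 49.1 to 53.1 and 37.7 to 40.6 after resection. No sham interval met a resection interval, but sham 2 did not meet sham 1 or sham 3 either, nor resection 1 resection 2. The intervals thus leave out the spread between libraries and do not test the surgery groups. Unthinned, the shares were 40.1%, 43.7% and 40.6% in sham and 74.5% and 59.0% after resection. The thinned share in T cell-like droplets was 14.7% ± 3.12 for sham (SD, n = 3) and 25.5% ± 6.86 for resection (SD, n = 2). Their median depth was 4812 UMIs, against 4657.5 for enterocyte-like cells. Immature enterocyte-like cells had shares of 2.55% ± 0.813 in sham and 3.86% ± 0.708 after resection, and cycling-like cells 5.10% ± 5.18 and 5.25% ± 2.83. How much of the share in enterocyte-like cells is background was not tested. Cells with 3 or more Cubn UMIs were 7.29%, 7.50% and 8.84% of enterocyte-like cells in sham and 39.4% and 16.6% after resection, without thinning. The thinned share with an Amn UMI was 51.0% ± 2.53 in sham and 57.3% ± 7.06 after resection, with overlapping groups.

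The filter on low counts passed 4 of the 6 genes in immature enterocyte-like cells (Cubn, Amn, Tcn2 and Cd320), 5 in cycling-like cells (these and Abcc1) and 3 in the goblet-like, the Paneth-like and the T cell-like sums (Cubn, Amn and Tcn2). In all of these except cycling-like cells the Cubn values after resection were above those of sham. Goblet-like cells had 83.2, 107 and 48.7 CPM in sham against 151 and 231 CPM after resection (log2 fold change 1.26 ± 0.37, SE, edgeR adjusted p = 0.590). There edgeR called 6 genes (0.118%), 4.08% had an unadjusted p under 0.05 and 10.2% lay above the sham range (Cubn and Amn of the members). Paneth-like cells had 11.6, 17.9 and 10.6 CPM in sham against 24.9 and 39.6 CPM after resection (1.24 ± 0.38, SE, edgeR adjusted p = 1.0), where 2 genes (0.0314%) were called, 2.07% had an unadjusted p under 0.05 and 7.31% lay above the sham range. T cell-like droplets had 104, 89.1 and 76.2 CPM in sham against 235 and 260 CPM after resection (1.48 ± 0.35, SE, edgeR adjusted p = 0.263), where 4 genes (0.119%) were called, 3.49% had an unadjusted p under 0.05 and 9.31% lay above the sham range. With the library set as a term, which was drawn from these data, 0.537% of genes were called. The T cell-like edgeR adjusted p of Cubn was then 0.00945, past the threshold, in a range of 0.00945 to 1.0 over 12 alternatives. A difference as large as that in enterocyte-like cells was thus present in droplets of a cell type that should lack Cubn. As a percent of the enterocyte-like level the values in these 3 classes overlapped between the groups. T cell-like droplets also held 72.6% ± 7.64 of the summed enterocyte markers (SD, n = 5), so they give no Cubn level free of enterocyte RNA. Immature enterocyte-like cells held 8.22% ± 3.25 of the enterocyte-like Cubn level of the same library, against 66.5% ± 18.2 in T cell-like droplets (SD, n = 5). Without TMM scaling Cubn was at 5.45 to 21.1 CPM in the immature class, against 100 to 435 CPM in enterocyte-like cells. The source of the difference in the 3 classes, free RNA or other, was not tested.

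The immature class showed a smaller difference. There Cubn was at 14.4, 17.4 and 5.87 CPM in sham against 18.7 and 22.8 CPM after resection, from 23 to 129 UMIs per library (log2 fold change 0.74 ± 0.41, SE, edgeR adjusted p = 1.0). The groups did not overlap, and 6.27% of the genes tested there lay above the sham range. edgeR called 0 genes (152, or 1.55%, at an unadjusted p under 0.05, and 1 called by DESeq2). The log2 ratio of the mature to the immature Cubn level differed by 0.44 between the groups (exact permutation p = 0.4, adjusted 0.4), by 1.40 within set A and by -0.24 within set B, so the data do not show that the difference is larger in mature cells. In cycling-like cells the groups overlapped (1.09 ± 0.58, SE, edgeR adjusted p = 1.0). Of the genes tested there 6.13% lay above the sham range, and edgeR called 0 (140, or 1.44%, at an unadjusted p under 0.05, and 2 called by DESeq2). Amn lay above the sham range in goblet-like cells (0.30 ± 0.35, SE, edgeR adjusted p = 1.0), though not without TMM scaling (sham 1 at 277 and resection 2 at 260 CPM), and Tcn2 in T cell-like droplets (0.26 ± 0.35, SE, edgeR adjusted p = 1.0), and in the remaining classes tested both overlapped.

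Over all epithelial cells together each of the 6 genes passed the filter on low counts and was tested. edgeR called 0 of 11742 genes (334, or 2.84%, at an unadjusted p under 0.05, and 34 called by DESeq2), and 7.94% had both resection libraries above the sham range, among them Cubn and Dab2. Cubn was at 65.9, 105 and 54.3 CPM in sham against 206 and 166 CPM after resection (log2 fold change 1.31 ± 0.34, SE, edgeR adjusted p = 1.0). Dab2 was at 0.106, 0.369 and 0.560 CPM in sham against 0.925 and 0.608 CPM after resection (1.0 ± 0.61, SE, edgeR adjusted p = 1.0), with 0.80 within set A but 0.14 within set B. These Dab2 values rest on 70 UMIs in all. The gene may have passed the filter only through the libraries where it was higher, so its place above the sham range is not read as a result. The log2 fold change was 0.19 ± 0.29 for Amn, 0.20 ± 0.32 for Tcn2, -0.38 ± 0.35 for Cd320 and -0.22 ± 0.43 for Abcc1 (SE), none of them past the threshold and all with overlapping groups. In a pooled sum, fewer cells of a type and less RNA per cell cannot be told apart.

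Along the villus, Cubn had a steeper gradient than its partner. Enterocyte-like cells were ordered by a score that sets villus-tip genes such as Ada against lower-villus genes such as Reg3b, and cut into quintiles within each library. Levels by quintile and by cluster are CPM without TMM scaling. From the lowest to the highest quintile Cubn went from 114 to 204, 145 to 234 and 57.3 to 210 CPM in sham 1, 2 and 3 and from 220 to 716 and 129 to 411 CPM in resection 1 and 2. The log2 ratio of the highest to the lowest quintile was 0.83, 0.69 and 1.86 in sham and 1.70 and 1.66 after resection, a mean of 1.35 ± 0.54 (SD, n = 5). Amn had a mean of 0.49 ± 0.13 and Tcn2 of 0.46 ± 0.18 (SD, n = 5), and in each library the value of Cubn was the largest of the 3. All 3 genes were highest in the top quintile in all 5 libraries.

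The difference between the surgery groups was smallest at the villus bottom. The lowest quintile had 105 CPM ± 44.4 of Cubn in sham (SD, n = 3), 175 ± 64.5 after resection (SD, n = 2) and overlapping groups. In the middle quintile it was at 99.7 ± 33.8 and 329 ± 141 CPM and in the highest at 216 ± 15.6 and 564 ± 216 CPM. In the upper 4 quintiles the groups did not overlap for Cubn, with resection higher, which held in 1 quintile for Amn and 2 for Tcn2. Of the genes tested in this class 2.24% did so in at least 4 quintiles, 11.8% in at least 2 and 29.4% in at least 1. The quintiles come from the same libraries and are not replicates. Whether the slope differs between the groups was not tested. The score is a range and not a cell type, 20.3% of the cells lie within 0.1 of a cut, and the median score of the highest quintile was itself higher after resection (-2.95 and -3.37) than in sham (-4.80 to -4.43), as was Ada, at 77.2 ± 59.5 CPM in sham (SD, n = 3) and 436 ± 206 CPM after resection (SD, n = 2). The part of these differences in the Cubn values was not tested.

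**Figure D4:**
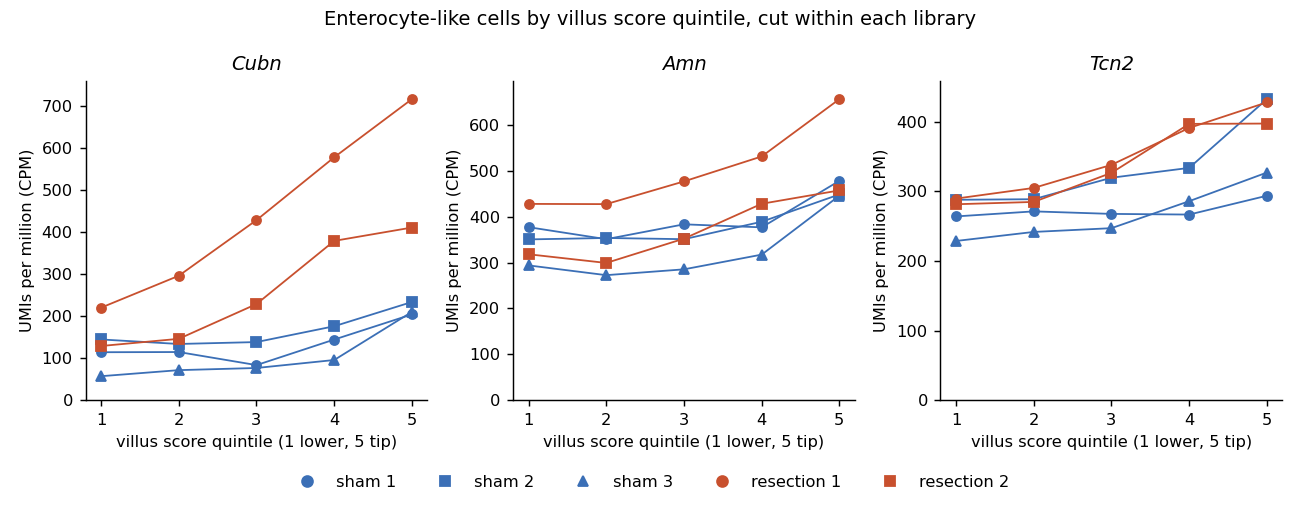
Cubn, Amn and Tcn2 in enterocyte-like cells (y axis, CPM) by quintile of the villus score (x axis, 1 lower villus to 5 villus tip), with 1 line per library. All lines are highest in quintile 5, and for Cubn both resection lines lie above all sham lines from quintile 2 upward.

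Among the 10 enterocyte-like clusters Cubn varied more than its partners. It was highest in cluster 9, at 717 CPM, of whose 922 cells 921 came from resection 1. Cubn itself was among the 10 leading genes of that cluster, with the kinase gene Sgk1, the peptide transporter gene Slc15a1 and the citrate and sulphate transporter genes Slc13a2 and Slc13a1. Cluster 2, led by Ada, Cyp3a11 and Apoc3 and mostly from resection 2 (1865 of 2010 cells), had 403 CPM. The interferon-gene cluster 19 had 308 CPM, and there resection 1 (421) and resection 2 (398) stood above sham 2 (162), the only sham library with at least 20 of its cells. The lowest values were 61.0 CPM in cluster 4, led by Areg and Gsta1, and 92.3 CPM in cluster 6, led by Ccl20 and Duoxa2 and mostly from sham 3 (1251 of 1313 cells). Tcn2 ran only from 245 CPM in cluster 4 to 409 CPM in cluster 7. Where a cluster held at least 20 cells of both groups, Cubn was not always higher after resection. In cluster 3 it was at 98.5 and 118 CPM in sham 2 and 3 and 150 CPM in resection 2, and in cluster 6 at 89.8 CPM in sham 3 and 164 CPM in resection 2, but in cluster 4 it was at 68.5 and 104 CPM against 51.4 CPM. Cluster 2 had 226 CPM in sham 2, between resection 1 (176) and resection 2 (415). Cluster 7 had 253 CPM in sham 2 and 357 in sham 3 against 325 in resection 2, and cluster 10 had 347 in sham 3 against 276 in resection 2.

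Because many of these clusters hold a single library, the clusters were also drawn with genes scaled within each library. Of 8 enterocyte-like clusters, 6 then had at least 20 cells of every library, 10481 cells in all. In 4 of the 6 both resection libraries had more Cubn than every sham library, and this was so in 1 of 6 for Amn and 2 of 6 for Tcn2. Of the 10351 genes tested in this class 2.01% did so in at least 4 of these clusters, 12% in at least 2 and 33.9% in at least 1, so the counts of Amn and Tcn2 are common ones. The cluster led by Lct, Fabp1 and Leap2 had 262, 305 and 213 CPM in sham 1, 2 and 3 against 458 and 451 CPM in resection 1 and 2. The cluster led by the interferon-induced genes Isg15, Ifit1 and Rsad2 had 127, 171 and 105 CPM in sham against 359 and 319 CPM after resection. In the cluster with the least Cubn, led by Edn1, F3 and Areg, the groups overlapped, at 42.3, 30.7 and 12.9 CPM in sham against 50.3 and 35.2 CPM after resection. Whether Cubn is higher within matched cells thus depended on how the clusters were drawn. Outside the 6, a cluster with 752 of its 798 cells from resection 1 had 801 CPM in that library.

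Cubn and Amn UMIs fell in the same cells slightly more often than their separate frequencies give. Of enterocyte-like cells with an Amn UMI after thinning, 21.9%, 28.8% and 22.7% in the sham libraries, and 55.5% and 42.8% in the resection libraries, had a Cubn UMI as well, against 17.9%, 23.5%, 14.9%, 43.8% and 35.2% of cells without an Amn UMI. The quotient was 1.22 to 1.52 over the libraries. It was 1.12 to 1.35 for Cubn and Tcn2, higher than for Cubn and Amn in sham 1 (1.35 against 1.22) and resection 2 (1.25 against 1.22), and 1.03 to 1.26 for Amn and Tcn2. Within the villus quintiles of a library, the Cubn and Amn quotient ran from 0.80 (sham 1, quintile 3) to 2.25 (sham 3, quintile 2). It was under 1 in sham 1 quintile 3 and in resection 2 quintile 5 (0.97), and above 1 in the others. These counts are sparse and both genes were higher toward the villus tip, so the values are a description.

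Across the 25 sums of 5 epithelial classes in 5 libraries, the genes whose pattern was most like that of Cubn were ranked on log2(CPM + 10) over 7557 genes. The closest was Pdzk1, a scaffold of apical transporters (Pearson r = 0.988), followed by Asah2 (neutral ceramidase, 0.984), Treh (trehalase, 0.976), Mme (the peptidase neprilysin, 0.975), Cyp3a25 (0.975) and Ace (0.972). Apoa1, Slc7a15, Clca4b and Slc5a4b came next, at 0.970 to 0.969. The genes most like Amn were others: Naprt (0.986), Xpnpep1 (0.983), Dpyd (0.981), Iqgap2 (0.980) and Ifi35 (0.977). Amn and Tcn2 had an r of 0.974 with each other, and Cubn had 0.801 with Amn and 0.805 with Tcn2. The sums share libraries, depth and free RNA, and Treh and Apoa1 are among the markers that named the enterocyte-like class, so these values only describe. Dab2 stayed under the minimum level and was not compared.

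The other genes of cobalamin handling did not move with Cubn in enterocyte-like cells. Of the 16 such genes found, 13 could be tested, of which 4 had a positive and 9 a negative log2 fold change. The positive share was 30.8%, beside 47.5% over all genes tested in this class. Of the 13 genes 0 were called, and the median was -0.20 (0.16 within set A and -0.15 within set B), beside -0.02 over all genes tested. Prdx1 (a peroxiredoxin whose gene neighbours Mmachc) was the most abundant, at a TMM-scaled level of 948 to 2718 CPM in sham against 1057 and 2358 CPM after resection. Lmbrd1, which exports the vitamin from lysosomes, was at 36.3 to 47.2 CPM in sham against 50.3 and 40.8 CPM after resection. Mmadhc, which directs it to its enzymes, was at 47.9 to 63.6 and at 41.8 and 53.7 CPM, and Mmab, an adenosyltransferase, at 3.57 to 6.34 and at 3.29 and 4.29 CPM. In each of these the groups overlapped.

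The machinery of endocytosis likewise showed no shared direction. Of 30 genes 28 were tested, 13 with a positive and 15 with a negative log2 fold change, 0 called, and a median of -0.01. The positive share was 46.4%, beside 47.5% over all genes tested. The clathrin chains Clta (284 to 396 CPM in sham, 293 and 371 CPM after resection) and Cltc (237 to 321 in sham, 314 and 298 after resection) overlapped between the groups. Ap2m1, a subunit of the clathrin adaptor AP-2, was at 173, 224 and 215 CPM in sham against 134 and 167 CPM after resection, below every sham library, as were 8.21% of the genes tested (-0.44 ± 0.28, SE, edgeR adjusted p = 0.998). Of 33 lysosomal genes 32 were tested, 21 with a positive and 11 with a negative log2 fold change and 0 called. Their positive share was 65.6%, beside 47.5% over all genes tested. The median was 0.11 (0.14 within set A and -0.09 within set B), beside -0.02 over all genes tested. Lipa, the lysosomal acid lipase, was at 10.7, 14.3 and 9.99 CPM in sham against 29.5 and 15.7 CPM after resection (0.95 ± 0.33, SE, edgeR adjusted p = 0.886), and Psap, the saposin precursor, at 359, 170 and 194 CPM in sham against 169 and 138 CPM after resection (-0.65 ± 0.39, SE, edgeR adjusted p = 0.998). Neither passed the threshold.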

How the data were processed

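The files deposited by the authors hold raw counts of UMIs for each gene in each cell, made with 10x Genomics 3' chemistry (v2) and Cell Ranger per the labels, which give its version with a question mark. The submitters' processing notes name mm10 and GRCm38. The annotation is not given in the sources used here. Repeated symbols (65 rows) were left out.

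Filters were 500 genes and at most 20% mitochondrial counts (18955 cells passed), and 720 predicted doublets were removed. Counts scaled to 10000 per cell were reduced to 30 components of 2000 variable genes, without the members, the lists and mitochondrial genes, and clustered (leidenalg 0.10.2, resolution 1). Clusters took the class with the highest mean marker position on log2(CPM + 10). The villus score is log2 of tip over bottom UMIs.

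Summed counts were tested two-sided by edgeR 4.0.16 under R 4.3.3 (quasi-likelihood test, TMM factors, filterByExpr, Benjamini-Hochberg, threshold 0.05), for classes that had 20 cells or more of each library, which left out stem-like cells. The SE is the log2 fold change over the root of F. DESeq2 1.42.0 was an alternative, and the tests were checked on simulated data. Named genes are the members, the 3 most abundant and the 3 of lowest p in each list, from which examples are given, the 10 most like Cubn and the 5 most like Amn. Members and lists were chosen with earlier results of these data known, and the T cell-like comparison was added after seeing the data. Sets A and B are named by no label and were also drawn from these data, so p-values with the set as a term only describe. The planned ratio of Cubn to Dab2 could not be formed, since Dab2 was at 0 in sham 1.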

Additional observations from a re-analysis of the deposited data

How the results depend on the processing

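The log2 fold change of Cubn kept its sign under 12 alternatives in each of the 7 comparisons, between 0.97 and 1.58 in enterocyte-like cells. Beside the small number of libraries, counting depth limits Dab2, Abcc1 and Cd320 more than Cubn, Amn and Tcn2. Replicate numbers 1 and 2 are shared by the groups but nothing says that they pair the mice. In the enterocyte-like class, deviations correlated at 0.75 for number 1 and 0.34 for number 2, against 0.71 for sham 3 with resection 2. The deviations of resection 1 and 2 from their mean mirror each other, so these values are not independent and cannot decide on a pairing. With the number as a replicate block, Cubn passed the threshold of edgeR in enterocyte-like (1.18, adjusted p = 0.0122), all epithelial (1.15, 0.0253), Paneth-like (1.13, 0.00151), goblet-like (1.04, 0.00105) and T cell-like (1.41, 0.0292) sums. The same model called 283 of 10351, 257 of 11742, 46 of 6371, 102 of 5104 and 33 of 3350 genes in these sums. Number 3 occurs in sham 3 only, so that library adds nothing to this contrast, which leaves few residual degrees of freedom.

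Counts of genes called moved by over 1.5 times. The enterocyte-like count of 0 became 69 (DESeq2), 195 (no filter), 283 (replicate block) and 26 (library set as a term), and 0 to 3 with a library left out (3 without resection 2). The immature count of 0 became 1 (DESeq2), 1 (no filter) and 94 (block). The cycling-like count of 0 became 2 (DESeq2), 12 (no filter), 62 (block) and 3 (set term), and 0 to 4 with a library left out (4 without sham 1). The goblet-like count of 6 became 24 (no filter), 102 (block), 21 (set term) and 2 (genes scaled within library), and 0 to 10 with a library left out. The Paneth-like count of 2 became 6 (DESeq2), 14 (no filter), 46 (block) and 8 (set term), and 0 to 8 with a library left out. The count of 0 over all epithelial cells became 34 (DESeq2), 18 (no filter), 257 (block) and 3 (set term). The T cell-like count of 4 became 16 (no filter), 33 (block) and 18 (set term), and 5 to 10 with a library left out. The cause was not tested.

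Small log2 fold changes turned sign. Tcn2 in immature cells was -0.016 under the block, -0.0026 at resolution 0.5, -0.0020 with genes scaled within library and -0.11 to 0.15 with a library left out, and Cd320 there -0.34 to 0.63. In cycling-like cells Tcn2 was -0.048 under the block and -0.11 to 0.21 with a library left out, Amn -0.38 to 0.15, and Abcc1 -0.28 with doublets kept and -0.027 to 0.10. In Paneth-like cells Amn was -0.068 under the block and -0.30 to 0.44, and Tcn2 -0.14 and -0.51 to 0.60. Abcc1 over all epithelial cells was -0.45 to 0.0037 with a library left out. The mature to immature ratio differed by 1.40 in set A and -0.24 in set B for Cubn, 0.57 and 0.089 for Amn and 0.32 in set A for Tcn2. The ratio of Cubn to Amn differed by 1.39 in set A, and that of Cubn to Tcn2 by 0.72 to 1.49 with a library left out.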
